A study of Mus musculus with 14 samples.

Results

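The genes described here encode the transcription factor NF-kB, its IkB inhibitors, Toll-like receptors and the adaptor Myd88, measured in mouse nucleus accumbens, a ventral striatal part of the brain's reward circuit. A list of 10 symbols (Nfkb1, Nfkb2, Rela, Relb, Nfkbia, Nfkbie, Tlr2, Tlr3, Tlr7 and Myd88) was matched exactly to the gene names of the authors' deposited table, and 9 of the 10 were found among its 13130 genes. Nfkbie, the gene of IkB-epsilon, had no row there and is not analysed further apart from its promoter sequence. RNA came from 7 C57BL/6 mice injected with AAV-Cre and 7 injected with AAV-GFP. Both groups carried loxP-flanked Tet1 alleles, so the AAV-Cre mice could lose Tet1, a DNA 5-methylcytosine dioxygenase gene, in cells that took up the adeno-associated virus, while the AAV-GFP mice kept it and received the same kind of virus with green fluorescent protein. RNA was extracted 4 weeks after the injection, with 1 library per mouse. The labels name no serotype, no promoter for Cre or GFP, and no age or sex of the mice. Cells that the virus did not reach keep Tet1.

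NF-kB is a pair of Rel-family proteins that waits in the cytoplasm, held by an IkB inhibitor or by the inhibitory tail of its own precursor. In the canonical route, Toll-like receptors and cytokine receptors activate the IKK kinases, IkB-alpha is degraded, and the pair of p50 (from Nfkb1) and RelA enters the nucleus. In the non-canonical route, p100 (from Nfkb2) is trimmed to p52, which enters the nucleus with RelB. Toll-like receptors recognise microbial molecules and nucleic acids. Most signal through Myd88, while Tlr3 uses another adaptor. In the brain, microglia are a main site of Toll-like receptor expression.

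No member passed an adjusted p of 0.05 in the authors' comparison of AAV-Cre with AAV-GFP, and across all genes 0.0% passed. All 9 members had a positive log2 fold change, between 0.10 for Rela and 0.59 for Tlr2 in the authors' deposited table. A positive value was also listed for 59.1% of all genes, and for 63.7% of the 4406 genes within the members' range of mean level. The median of the 9 members was 0.17 and that of all genes 0.02 on the log2 scale. An unadjusted p under 0.05 was listed for Nfkb2 and Relb, 2 of the 9 members (22.2%), against 5.15% of all genes in either direction and 4.62% with a higher value in AAV-Cre. Both encode partners of the non-canonical route, and a change of that route was not tested. Among genes within the members' range of mean level, 6.95% had such a p in either direction and 6.4% with a higher value in AAV-Cre. At an unadjusted p under 0.1 there were 5 members, against 10.7% of all genes, and at one under 0.01 there was 1, Nfkb2, against 1.05%. The table gives 1 fold change, 1 mean level and 1 p per gene and no value per mouse, so the spread of the mice, the overlap of the groups and the depth of each library are unknown, and errors below are standard errors derived from the authors' statistics.

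**Figure D1:**
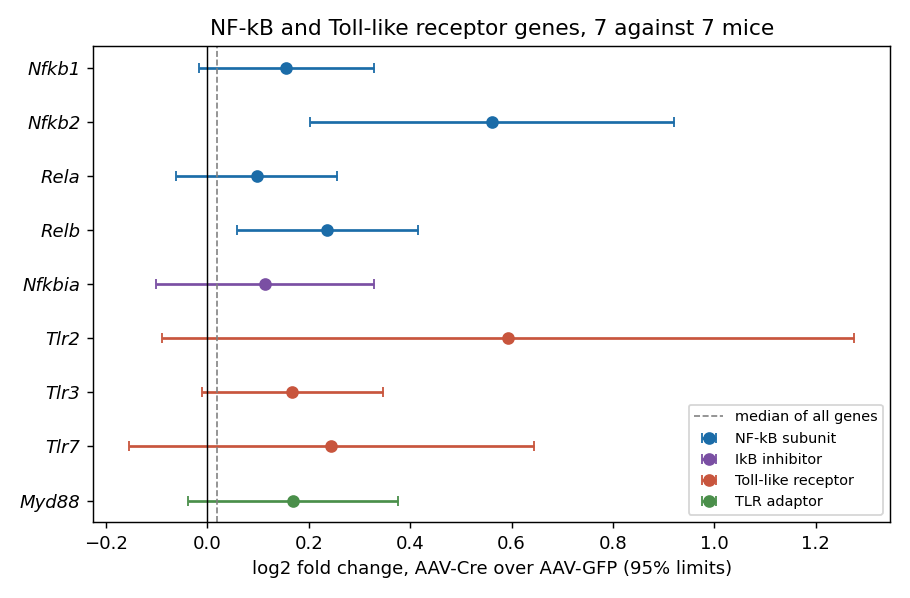
Log2 fold change of the 9 members in AAV-Cre over AAV-GFP, 7 mice each, ordered and coloured by role. Points are the authors' deposited values, bars the 95% limits derived from them and the dashed line the median of all genes (0.02); only the bars of Nfkb2 and Relb lie wholly above 0.

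The targeted gene was not called in these data. Tet1 had a log2 fold change of -0.13 ± 0.11 (SE) with an adjusted p of 0.921 in the authors' deposited table, a value over the whole transcript and all cells of the dissected tissue.

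Nfkb2, which encodes p100 and its product p52, had the smallest p of the members. Its level in AAV-Cre was 1.48 times that in AAV-GFP, a log2 fold change of 0.56 ± 0.17 (SE) with 95% limits of 0.20 to 0.92. The unadjusted p of Nfkb2 in the authors' deposited table was 0.00455, rank 76 of all genes, and the adjusted p was 0.778. It was also among the weakest members, with a mean level of 3.96 CPM (read counts scaled by library size, read from the authors' mean log2 level). Nfkb2 (ENSMUSG00000025225.10) maps to chromosome 19 (46304320 to 46312385, plus strand, GRCm38).

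Relb, the gene of the RelB partner of p52, had a log2 fold change of 0.24 ± 0.08 (SE) in the authors' deposited table, 1.18 times the AAV-GFP level. Its 95% limits ran from 0.06 to 0.42 on the log2 scale, with an unadjusted p of 0.0129 and an adjusted p of 0.919. Its standard error was smaller than is usual for its level, 0.714 of the median of the genes nearest to it in mean level. Relb (ENSMUSG00000002983.12) maps to chromosome 7 (19606217 to 19629438, minus strand, GRCm38).

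The canonical subunits had smaller fold changes. Nfkb1, which encodes p105 and its product p50, had a log2 fold change of 0.16 ± 0.08 (SE; 95% limits -0.02 to 0.33) in the authors' deposited table, 1.11 times the AAV-GFP level. Rela, which encodes the activating p65 subunit, had 0.10 ± 0.07 (95% limits -0.06 to 0.26) there, 1.07 times the AAV-GFP level. Their unadjusted p was 0.0735 for Nfkb1 and 0.210 for Rela, and adjusted p was 0.919 for Nfkb1 and 0.921 for Rela. These 2 were the most abundant members per library, at 23.1 CPM for Nfkb1 and 21.8 CPM for Rela. A difference in fold change between the canonical and the non-canonical subunits was not tested, since that needs values per mouse. The limits of Nfkb2 and Rela overlap between 0.20 and 0.26, and those of Relb (0.06 to 0.42) hold the fold changes of both Nfkb1 and Rela. Nfkb1 (ENSMUSG00000028163.13) maps to chromosome 3 (135584655 to 135691547, minus strand), and Rela (ENSMUSG00000024927.7) to chromosome 19 (5637483 to 5648130, plus strand; all GRCm38).

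Nfkbia, the gene of IkB-alpha, is itself a well-known NF-kB target and so part of a feedback loop. Its log2 fold change was 0.11 ± 0.10 (SE; 95% limits -0.10 to 0.33) in the authors' deposited table, 1.08 times the AAV-GFP level, at a mean level of 19.2 CPM. It had the largest p of the members, 0.277 unadjusted and 0.921 adjusted. Its upper limit corresponds to a level 25.7% above AAV-GFP, so a larger rise than that lies outside the limits. Nfkbia (ENSMUSG00000021025.7) maps to chromosome 12 (55489410 to 55492647, minus strand, GRCm38).

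Tlr2, a receptor for bacterial lipoproteins, had the largest fold change of the members and the widest error. Its log2 fold change was 0.59 ± 0.32 (SE) in the authors' deposited table, 1.51 times the AAV-GFP level, with 95% limits from -0.09 to 1.28. The limits run from a level 6.04% below to one 142% above AAV-GFP. The standard error of Tlr2 was 2.26 times the median of genes at its level, and 4.31 times that of Rela, the smallest among the members. Its unadjusted p was 0.0840 and its adjusted p 0.919 at a mean level of 3.68 CPM, the lowest of the members.

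Tlr3, the receptor for double-stranded RNA, had a log2 fold change of 0.17 ± 0.08 (SE; 95% limits -0.01 to 0.35) in the authors' deposited table, 1.12 times the AAV-GFP level, with an unadjusted p of 0.0626 and an adjusted p of 0.919. At 15.0 CPM it was the most abundant of the 3 receptors. Tlr7, the endosomal receptor for single-stranded RNA, had 0.24 ± 0.19 (95% limits -0.15 to 0.64) there, 1.19 times the AAV-GFP level, with an unadjusted p of 0.210 and an adjusted p of 0.921 at 5.16 CPM. Myd88, the adaptor of Tlr2 and Tlr7, had 0.17 ± 0.10 (95% limits -0.04 to 0.38), 1.12 times the AAV-GFP level, with an unadjusted p of 0.101 and an adjusted p of 0.919 at 4.43 CPM in the authors' deposited table. Tlr2 (ENSMUSG00000027995.10) maps to chromosome 3 (83836272 to 83841767, minus strand), Tlr3 (ENSMUSG00000031639.7) to chromosome 8 (45395665 to 45411080, minus strand), Tlr7 (ENSMUSG00000044583.9) to chromosome X (167304929 to 167330558, minus strand) and Myd88 (ENSMUSG00000032508.8) to chromosome 9 (119335934 to 119341411, minus strand; all GRCm38).

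**Figure D2:**
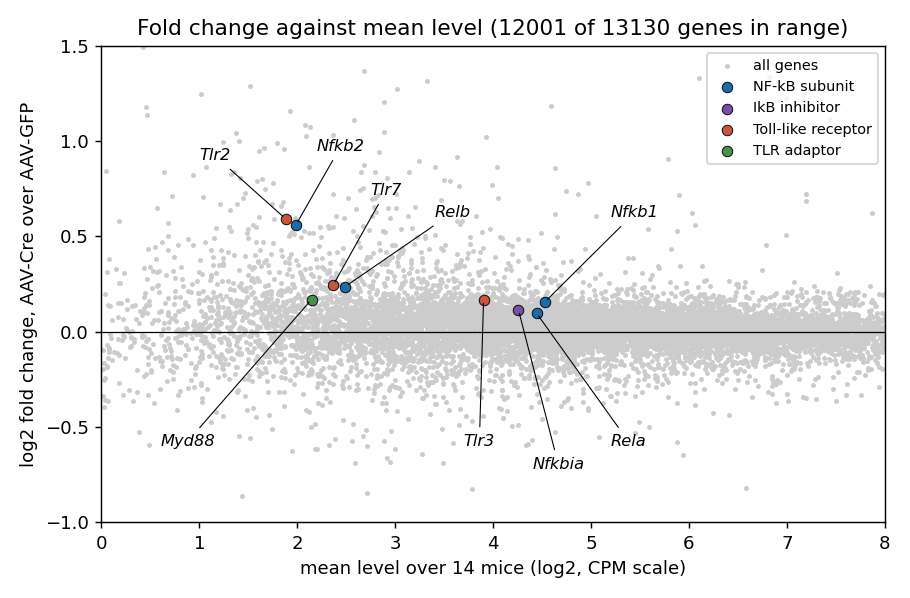
Log2 fold change (AAV-Cre over AAV-GFP) against mean log2 level over the 14 mice for the 12001 of 13130 genes in the plotted range, with the 9 members coloured by role. Nfkb2 and Tlr2 stand above the bulk of genes at their level, and the other members lie on the upper side of it.

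Per kilobase of exonic length, which allows levels to be compared between genes, the order over all 14 mice was Nfkbia (11.9 CPM per kilobase), Rela (7.08), Tlr3 (2.87), Nfkb1 (1.91), Myd88 (1.72), Relb (1.45), Tlr7 (1.26), Tlr2 (1.22) and Nfkb2 (0.865). IkB-alpha and p65 messenger RNA led, and the p100 precursor gene came last. Whether neighbours in this order differ beyond the spread of the mice is not known from the table. The length joins the exons of all annotated transcripts, which makes the value of Nfkb1, with 12.1 kilobases, low. The members with the 2 largest fold changes, Tlr2 and Nfkb2, were also the 2 with the lowest mean level per library, and 5 of the 9 members were in the lowest sixth of all genes by mean level. All 9 had a mean level above 1 CPM, between 3.68 and 23.1 CPM, while the table reaches down to 0.0589 CPM.

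Exons of 3 members overlap those of genes on the other strand, and whether reads were counted by strand is not given. Nfkb2 shares 299 of its 4584 exonic bases with Psd, a brain-expressed exchange factor gene at 514 CPM, whose log2 fold change was 0.11 ± 0.09 (SE) in the authors' deposited table. It shares 531 bases with the long noncoding RNA gene AC114539.1, which is not in the table. Myd88, at 4.43 CPM, shares 290 of its 2576 exonic bases with Acaa1a, a peroxisomal thiolase gene at 57.7 CPM. Acaa1a had a log2 fold change of 0.01 ± 0.07 in the authors' deposited table. Tlr3 shares 381 of 5207 exonic bases with the antisense gene Gm45542. The part of overlapping reads in the values of Nfkb2, Tlr3 and Myd88 was not tested.

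The promoters of the members were read for NF-kB and interferon motifs, since several NF-kB genes are known to be controlled by NF-kB itself. RefSeq start sites on GRCm38.p6 were matched for 7 of the 10 listed genes with 9 start sites in all, 3 of them in Nfkb2; Nfkb1, Relb and Tlr7 were not matched. A kappaB-like match (GGGNNTTCC or GGGNNTTTC, either strand, where N is any base) stood in the 250 bases before 8 of the 9 start sites, in 6 of the 7 genes, against 8.14% of all 32851 promoters. An interferon-response-like match (TTTCNNTTT, either strand) stood before 3 of the 9, in Tlr2, Tlr3 and Myd88, against 9.37% of all promoters. Some matches of the same letters overlap each other. In Nfkb2 and Tlr2, GGGAATTCC matches on the strand of the gene and the overlapping GGAATTCCC on the opposite strand. A match is a description of the letters and not a measured site.

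A part of the sequences that hold these matches is given 5′ to 3′ on the strand of the gene, in lower case with the matched 9 bases in capitals. Left out are the matches of Nfkbie, of Nfkb2 before start 2 and nearest its start 1. The kappaB-like match of Tlr3 and the interferon-response-like match of Tlr2 are not shown either. The first 4 are kappaB-like in the NF-kB subunit and receptor genes and the last 2 interferon-response-like in the receptor and adaptor genes; those of Rela and Myd88 match on the opposite strand. Nfkb2 is shown before its start site 1 (chr19:46304688-46304716) and its start 3 (chr19:46305695-46305723), Rela at chr19:5637434-5637462, Tlr2 at chr3:83841762-83841790, Tlr3 at chr8:45410421-45410449 and Myd88 at chr9:119340039-119340067. The stretches of Nfkb2, Tlr2 and Myd88 lie before these RefSeq starts but overlap exons that GENCODE M21 annotates to the same genes, and that of Nfkb2 at start 1 also overlaps an exon of AC114539.1.
Nfkb2, start 1: ggatcgtcacGGGAATTCCccccctcggg
Nfkb2, start 3: tggtattttcGGGACTTTCctaagcagca
Rela: aacgggacccGAAATCCCCtaaaaacaga
Tlr2: aggacacctgGGGAATTCCcacacggagc
Tlr3: agtgaatggcTTTCACTTTgtttagacac
Myd88: agcttctcggAAAGCGAAAgaaggagggg

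Nfkbia is shown over the 150 bases before its start site (chr12:55492648-55492797, minus strand), because both of its kappaB-like matches lie there. The matches begin 113 and 28 bases before the start, and the second is on the opposite strand.
Nfkbia: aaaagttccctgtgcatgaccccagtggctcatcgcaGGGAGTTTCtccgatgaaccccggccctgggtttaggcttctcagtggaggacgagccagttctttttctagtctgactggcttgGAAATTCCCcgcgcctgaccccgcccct

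KappaB-like matches stood in genes of larger and of smaller fold change. Nfkb2, with kappaB-like matches before each of its start sites, had a log2 fold change of 0.56 in the authors' deposited table, and Tlr2 had 0.59. Tlr3, Nfkbia and Rela, which also have matches, had 0.17, 0.11 and 0.10 there. Myd88, whose window held no kappaB-like match, had 0.17.

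**Figure D3:**
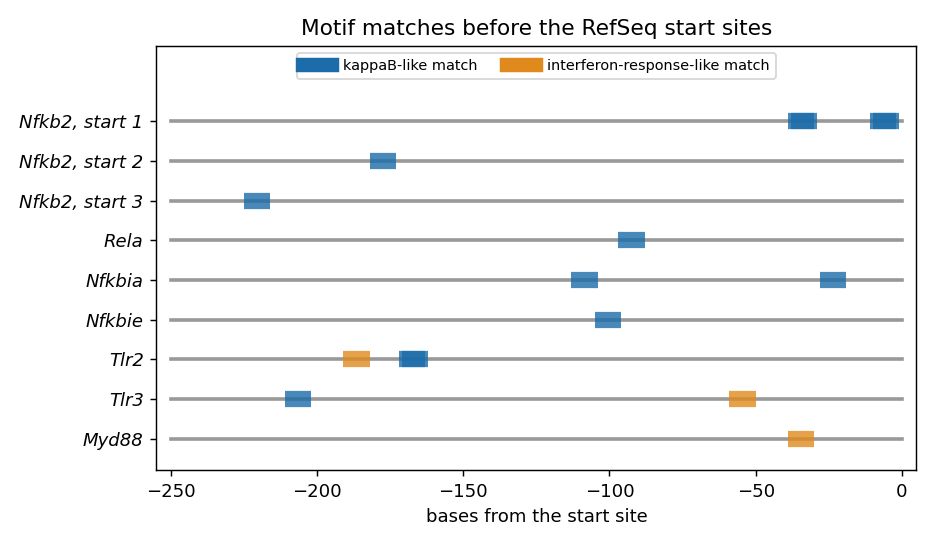
Position of kappaB-like (blue) and interferon-response-like (orange) matches in the 250 bases before each of the 9 RefSeq start sites, with the start at 0. Each of the windows except that of Myd88 holds a blue mark, and orange marks stand in Tlr2, Tlr3 and Myd88.

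The other genes of the pathway were taken from lists by role. These lists were chosen with earlier results of these data known, so their counts are descriptions only. Across all genes 59.1% had a positive value and 5.15% an unadjusted p under 0.05, 4.62% with a higher value in AAV-Cre. The measured genes of the intracellular relay from receptor to NF-kB had list medians near 0 in the whole tissue. Of the IKK complex and its upstream kinases 9 of 10 were in the table, 4 with a positive and 5 with a negative value, a median of -0.01 on the log2 scale and 0 with an unadjusted p under 0.05. The kinase-binding protein gene Tab2 (0.08 ± 0.05), the IKK scaffold gene Ikbkg (-0.05 ± 0.05) and the kinase gene Map3k7 (-0.04 ± 0.04) came first by p in the authors' deposited table. Of the Toll-like receptor adaptors and proximal signalling genes 13 of 20 were measured, 7 positive and 6 negative, with a median of 0.01. Among them the ubiquitin ligase gene Peli1 (0.18 ± 0.08, unadjusted p = 0.0360) was the only one with an unadjusted p under 0.05 in the authors' deposited table, followed, apart from Myd88, by the related ligase gene Peli2 (0.09 ± 0.08) and the adaptor gene Sarm1 (-0.08 ± 0.08).

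Of the inhibitors 11 of 14 were measured, 9 positive and 2 negative, and their median was 0.06 on the log2 scale. The IkB-beta gene Nfkbib (0.11 ± 0.05, unadjusted p = 0.0468), the deubiquitinase gene Cyld (0.17 ± 0.09) and the linear-chain deubiquitinase gene Otulin (0.12 ± 0.07) came first by p in the authors' deposited table. Of 12 Toll-like receptor genes 4 were in the table, all with a positive value and a median of 0.31. The receptor outside the member list was Tlr13, a sensor of bacterial ribosomal RNA in mice, at 0.39 ± 0.16 (unadjusted p = 0.0277, adjusted p = 0.919) and 4.77 CPM in the authors' deposited table. Co-receptors and chaperones had a median of 0.16 over 6 of 10 genes, all 6 positive and 0 with an unadjusted p under 0.05. They were led by Unc93b1, the carrier of endosomal Toll-like receptors (0.44 ± 0.21), the chaperone gene Cnpy3 (0.07 ± 0.05) and the co-receptor gene Ly86 (0.38 ± 0.27) in the authors' deposited table.

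Of the interleukin-1 and tumour necrosis factor (TNF) receptor inputs 7 of 17 were measured, with a median log2 fold change of 0.07. Both TNF receptor genes, Tnfrsf1b (0.53 ± 0.17, unadjusted p = 0.00807, adjusted p = 0.858) and Tnfrsf1a (0.37 ± 0.14, unadjusted p = 0.0173, adjusted p = 0.919), had an unadjusted p under 0.05 in the authors' deposited table, and the next was the ubiquitin ligase gene Birc2 (0.07 ± 0.05). Of 28 inflammatory target genes 12 were measured, 10 positive and 2 negative, with a median of 0.61. An unadjusted p under 0.05 was listed for 9 of these 12, all higher in AAV-Cre, against 4.62% of all genes, and 0 passed the adjusted threshold. Sod2 (-0.05 ± 0.08), Gadd45b (-0.02 ± 0.12) and Ier3 (0.01 ± 0.12) had no such p in the authors' deposited table. The adhesion molecule gene Vcam1 (0.39 ± 0.10), the complement gene C3 (3.09 ± 0.85) and the transcription factor gene Irf1 (0.84 ± 0.23) came first by p in the authors' deposited table, each with an adjusted p of 0.695. Several genes of this list, Irf1 and C3 among them, are also known to respond to interferons. The other 16 genes of the list, the cytokine genes Tnf, Il1b and Il6 among them, are not in the table. An unknown filter on low genes can keep a weak gene where only 1 group expresses it, so the count of 9 may be too high. The list was also chosen with earlier results of these data known, so that count is a description and no independent support.

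Sensors of nucleic acids and danger outside the Toll-like family were all positive, 7 of 14 measured, with a median of 0.35 on the log2 scale. With an unadjusted p under 0.05 and a higher value in AAV-Cre, against 4.62% of all genes, there were 3. These were Nod1, a sensor of bacterial peptidoglycan (0.36 ± 0.12, unadjusted p = 0.00846), Ddx58, which encodes the RNA sensor RIG-I (0.45 ± 0.17, unadjusted p = 0.0157), and Tmem173, which encodes STING (0.35 ± 0.15, unadjusted p = 0.0360), with adjusted p between 0.861 and 0.919 in the authors' deposited table.

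**Figure D4:**
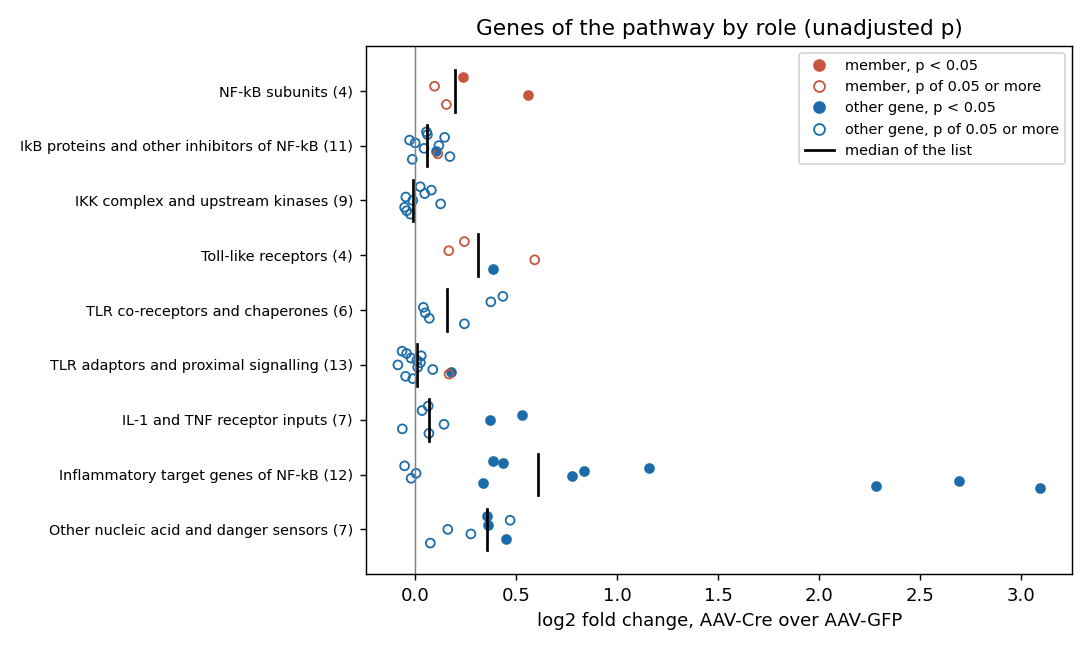
Log2 fold change (AAV-Cre over AAV-GFP) of each measured gene of 9 lists by role, with the number of genes in brackets, members in red, other genes in blue, filled points for an unadjusted p under 0.05 and a black line at the median of the list. The relay lists lie around 0 (medians -0.01 and 0.01), while inflammatory targets reach 3.09.

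Cell type markers were read beside these values, since in whole tissue more cells of a type and more RNA per cell cannot be told apart. For the counts below, 5.15% of all genes had an unadjusted p under 0.05, 4.62% with a higher value in AAV-Cre. Striatal projection neuron markers were all 12 in the table, led in level by Penk at 1280 CPM, so markers of striatal neurons in general were present. Their median was 0.07 on the log2 scale, with 0 at an unadjusted p under 0.05 and Adora2a first by p (0.14 ± 0.10 in the authors' deposited table). Microglia markers, all 12 in the table and together at 631 CPM, had a median of 0.24, 10 positive, and 4 with an unadjusted p under 0.05. Csf1r was the most abundant (158 CPM; 0.21 ± 0.14) and C1qa led by p (0.72 ± 0.25, unadjusted p = 0.0117) in the authors' deposited table, while the homeostatic marker P2ry12 stood at 0.02 ± 0.12. Endothelial markers had a median of 0.18 over 8 (Flt1 highest at 71.2 CPM), all 8 positive and 2 with an unadjusted p under 0.05. Astrocyte markers had a median of 0.10 over 8 (Slc1a2 at 2682 CPM), 6 positive and 1 with such a p. Oligodendrocyte markers had a median of 0.05 over 8 (Mbp at 3007 CPM), 7 positive and 0 with such a p. Cldn5 (0.29 ± 0.12), Slc1a3 (0.20 ± 0.08) and Cldn11 (0.14 ± 0.13) led these lists by p in the authors' deposited table. Lymphocyte markers had a median of 1.53 over the 6 of 16 in the table, 5 of them with an unadjusted p under 0.05. At a mean level of at least 1 CPM the median was 1.13 over 4, with 3 under 0.05, and the limit of the unknown filter given for the inflammatory targets holds here too. Cd4 stood at -0.05 ± 0.17 (56.7 CPM) in the authors' deposited table. Igkc was the most abundant (104 CPM) and Trac led by p (1.39 ± 0.40 in the authors' deposited table), and the T cell genes Cd3e, Cd3d and Cd3g were not among those measured. Of the blood monocyte and macrophage markers 2 of 11 were measured, Lyz2 at 1.18 ± 0.38 and Cd163 at -0.28 ± 0.26 in the authors' deposited table. The part of cell numbers in the values of Tlr2, Tlr7, Nfkb2 and the other members was not tested.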

How the data were processed

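Polyadenylated RNA of 14 samples was sequenced from TruSeq libraries, per the labels' protocols. The submitters' processing notes name TopHat2 2.0.9, Bowtie2 2.1.0, GRCm38 and mm10; how reads were counted, by strand or not, filtered and modelled is not given in the sources used here. Per the file headers, the deposited log2 columns are a fold change and a mean level, the deposited score columns a moderated t (used) and a log-odds value, and the deposited p-value columns an unadjusted and an adjusted p; the column names are those of limma. The direction, AAV-Cre over AAV-GFP, comes from the table's name. The linear mean levels sum to 991364, so they are read as CPM.

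The adjusted p equals a Benjamini-Hochberg adjustment over all 13130 genes to within 1e-14. Standard errors are fold change over t, and 95% limits use the 15.1 degrees of freedom that link t and p. The adjustment and the recovery of the degrees of freedom were tested on simulated data. That simulation took the standard errors as given, so it could not test them or the limits. Members and lists were chosen with earlier results of these data known. Named genes are the members, the 3 other genes of smallest p in each pathway list, and the most abundant and smallest-p markers. P2ry12, Cd4, Cd163, Sod2, Gadd45b, Ier3, Tnf, Il1b, Il6 and the Cd3 genes were added after the values were seen. No gene was named for a like pattern, since 1 comparison gives none. The median standard error of genes near in level used 250 genes on each side. Coordinates and exonic lengths are from GENCODE M21 (13063 IDs matched), promoters from RefSeq GRCm38.p6. Drd1 is listed as Drd1a. The planned fits on library values could not be run. Software was Python 3.11.15 with scipy 1.17.1, pandas 2.3.3, matplotlib 3.10.9, numpy 2.4.6 and, for the simulated data, statsmodels 0.14.6.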

Additional observations from a re-analysis of the deposited data

How the results depend on the processing

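No member passed the adjusted threshold under the alternatives tried, 0.1 as threshold (0) or a mean level of at least 1 CPM (0). No other gene passed either, so this says nothing particular to the members. The smallest Benjamini-Hochberg adjusted p was 0.695 over all genes and 0.782 over genes of at least 1 CPM. The minimum of 1 CPM leaves out none of the 9 members, so their 2 unadjusted p under 0.05 could not change there. The share of all genes was then 4.84%. With an unadjusted threshold of 0.1 there were 5 members (55.6%, against 10.7% of all genes), and with 0.01 there was 1, Nfkb2 (against 1.05%). The threshold of 0.1 also gave 3 inhibitors, 3 Toll-like receptors, 1 co-receptor or chaperone and 5 other sensors. Centred on the median of all genes (0.02), each of the 9 members kept its sign, and unadjusted p was 0.00570 for Nfkb2 and 0.0201 for Relb. With 150 in place of 250 bases before the start, a kappaB-like match stood before 4 of the 9 start sites in place of 8 (5.22% of all promoters). These were in 4 genes in place of 6. An interferon-response-like match then stood before 2 of the 9 start sites in place of 3 (5.17% of all promoters), in 2 genes in place of 3. No paired analysis was possible because the table holds no values per mouse; for the same reason leaving out single mice was not run. Leaving the members out of the subunit list left no gene. Depth and the low mean level of 5 members limit precision to an unknown degree.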
